A study of Sorghum bicolor with 14 samples.

Results

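Sobic.007G050600 is the sorghum gene for cellulose synthase-like F6 (CSLF6), and its locus was taken from the deposited expression values by this identifier, as 1 of 32752 named loci in the table of development stages and 1 of 32705 in the table of drought groups. The deposited sheet gives the identifier and no product name, so the enzyme name rests on the gene's published identity and was not checked against an annotation. The data come from RNA sequencing of the middle stem internode of sweet sorghum (Sorghum bicolor) variety ICSV12012, in 14 libraries of 7 groups with 2 libraries each. Plants of 4 groups were sown in a fertilized, regularly watered soil bed and sampled at floral initiation, booting (the head still inside the flag leaf sheath), the milky stage and soft dough, the last a pair of grain-filling stages. Plants of the other 3 groups were grown singly in pots, lost their watering at the flag leaf stage and were cut at booting, at soil moistures of about 13% (D1), 7% (D2) and 2% (D3). No watered pot group was analysed here (plants per library: not given in the sources used here).

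Mixed-linkage glucan is an unbranched chain of glucose units joined by a mixture of beta linkages, and among cereals and other grasses it is a characteristic matrix polysaccharide of cell walls. CSLF6 belongs to the same glycosyltransferase family as the cellulose synthases, spans the membrane several times and builds the chain from UDP-glucose. In rice and barley, plants without a working CSLF6 contain very little of the polymer. The glucan is laid down in growing walls and is removed again by specific glucanases, which makes it a possible store of glucose as well as a wall component.

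Levels are in FPKM, a fragment count per length of transcript and per size of library, and the authors deposited 1 value per locus and group. Without values per library there is no standard deviation, n or test for any difference below, and it cannot be said which neighbouring groups differ beyond their spread. The sequencing depth is unknown, since FPKM keep no read totals. The locus lies on chromosome 7 from 5140759 to 5148111 in both tables, a span of 7352 bases in the coordinates of the file (genome build not given in the sources used here). A second identifier, Sobic.007G050650, is listed with exactly the same span at 0.0336 to 0.308 FPKM in the 7 groups. Fragments of that region could thus have been divided between the 2 entries, and the span may not be that of CSLF6 alone.

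CSLF6 alternated between high and low values along the stages. It stood at 42.9 FPKM at floral initiation, 9.17 at booting, 97.8 at the milky stage and 16.6 at soft dough. The milky stage was thus highest and booting lowest, with floral initiation and soft dough between them. In the 3 drought groups the values were 3.75 FPKM in D1, 3.31 in D2 and 5.42 in D3, all below the lowest stage. Between the highest group, the milky stage, and the lowest, D2, the level differed 29.5 times. These groups differ in stage, growing place and watering and come from separately quantified tables.

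**Figure D1:**
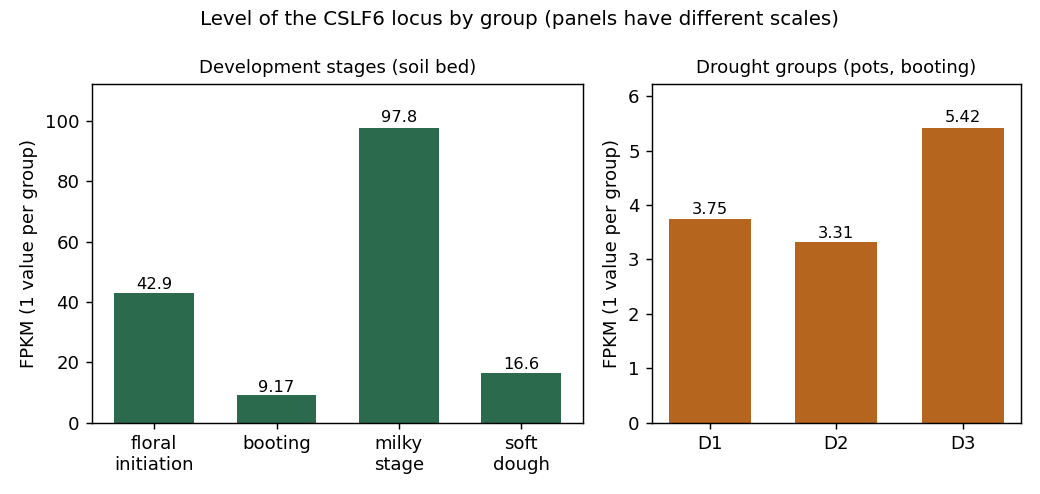
FPKM of the CSLF6 locus in the 4 development groups (left) and the 3 drought groups (right), 1 deposited value per bar and therefore no error bars; the panels have different scales. The milky stage is highest at 97.8 FPKM and the 3 drought groups lie between 3.31 and 5.42.

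In order from the top, each group was above the next by 2.28 times (milky stage over floral initiation), 2.59 times (floral initiation over soft dough), 1.81 times (soft dough over booting), 1.69 times (booting over D3), 1.45 times (D3 over D1) and 1.13 times (D1 over D2). The last few of these steps are small, and without replicate values none can be set against an error. The step from booting to D3 also crosses the 2 tables, which were quantified separately.

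Its place among the other expressed loci moved with the level. Of the 18367 loci that reached 1 FPKM in at least 1 stage, 92.1% were below CSLF6 at the milky stage, where it ranked 1446 from the top. At floral initiation 84.9% were below it and at soft dough 63.9%. At booting the share was 50.4%, which put the gene in the middle of the expressed loci, whose median there was 9.01 FPKM. Among 17229 loci of the drought table, 26.0% were below it in D1, 22.9% in D2 and 33.1% in D3. The gene was thus above most expressed loci at the milky stage and below the median locus in every drought group. These are internodes with all their tissues, so fewer cells that use the gene and less of its RNA per cell cannot be told apart.

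The first step asks how the internode at booting differs from that at floral initiation, when the shoot tip has just turned to forming a head. CSLF6 was at 9.17 FPKM at booting against 42.9, or 4.68 times lower. The difference of log2(FPKM + 1), a scale that makes the change of low loci smaller than their FPKM ratio, was -2.11. Of the loci compared, 13.5% were at least 2-fold lower at booting on this scale, and 504 (2.74%) had a more negative difference than CSLF6. The median difference of all loci was 0.01.

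From booting to the milky stage, the start of grain filling, the value was 10.7 times higher, 97.8 FPKM against 9.17, a log2 difference of 3.28. This was the widest of the differences between stages for this gene. An at least 2-fold higher value at the milky stage was found for 9.27% of loci, and 64 of 18367 (0.348%) had a more positive difference than CSLF6. The more frequent direction of this step was the other one, with 15.7% of loci lower by 2-fold or more.

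Between the milky stage and soft dough, the later stage of grain filling, CSLF6 was 5.90 times lower, at 16.6 FPKM against 97.8, a log2 difference of -2.49. At least 2-fold lower values were listed for 8.13% of loci, and 74 (0.403%) had a more negative difference. Fewer loci had a more extreme difference here than in the step into booting, where the ratio was 4.68.

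Across more than 1 step the differences were smaller than in the single steps. Soft dough was 2.59 times below floral initiation, a log2 difference of -1.32, in a comparison in which 16.8% of loci were at least 2-fold lower and 11.9% had a more negative difference than CSLF6. The milky stage was 2.28 times above floral initiation, a log2 difference of 1.17. There 17.4% of loci were at least 2-fold higher, and 13.9% had a more positive difference than CSLF6. With quantile normalization the difference of CSLF6 was 0.94 and no longer 2-fold. Soft dough was 1.81 times above booting, a log2 difference of 0.79, which is under 2-fold and became 1.08 after scaling FPKM to an equal sum per group (TPM). With TPM the median of all loci was 0.23, and CSLF6 was 0.85 above that median. With FPKM, 8.18% of loci were at least 2-fold higher in that comparison, and 12.8% had a more positive difference than CSLF6.

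**Figure D2:**
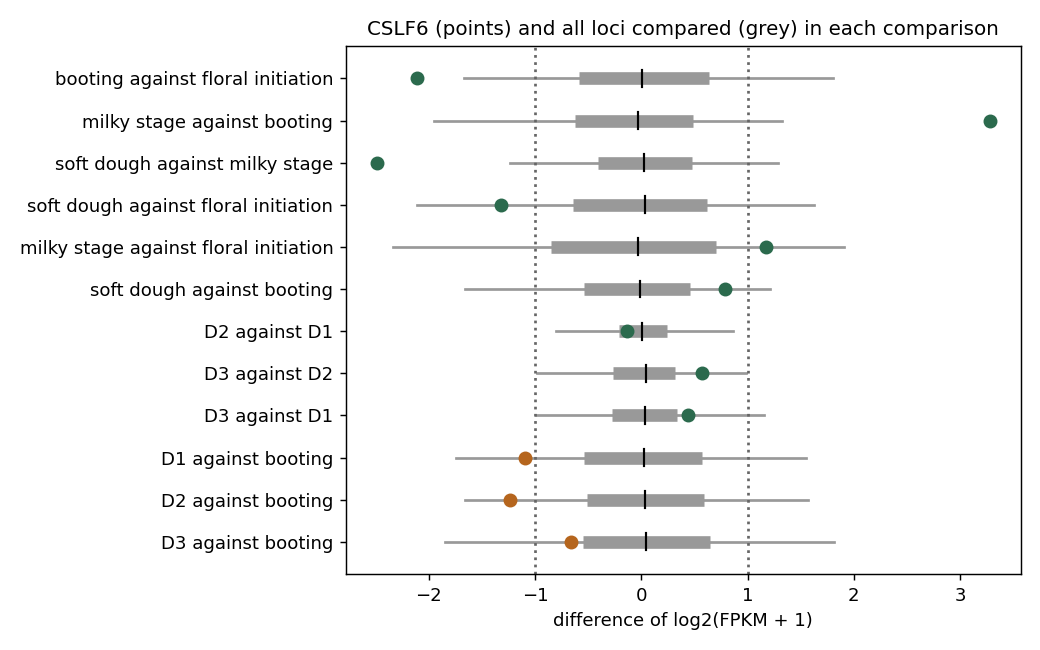
Difference of log2(FPKM + 1) in each of the comparisons, for CSLF6 (points) and for all loci compared (thick grey bar from the lower to the upper quartile, thin grey line from percentile 5 to percentile 95, black tick at the median); dotted lines mark 2-fold. Green points are within a table and brown points across the tables. CSLF6 lies outside the grey line in the 3 steps between neighbouring stages, at -2.11, 3.28 and -2.49, and inside it in the other comparisons.

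A course with at least 2-fold differences at every step, as CSLF6 had, was uncommon in these values. Over the 4 stages the log2 range of CSLF6 was 3.28 against a median of 1.18 for all loci compared, and 847 loci (4.61%) had a wider one. At least 2-fold differences at all 3 steps between neighbouring stages were found for 619 of 18367 loci. Of the 619, 121 (19.5%) had the lower, higher and lower sequence of CSLF6, 0.659% of all loci compared. The most frequent sequence was the opposite one, higher, lower and higher, with 245 loci (1.33% of all loci compared). The sequence of CSLF6 was looked for because the gene shows it, so its membership is a description. The count of loci with the sequence of CSLF6 depended on the setting. It was 215 with an offset of 0.1, 46 with an offset of 5 and 225 with TPM, and CSLF6 belonged to it in each case. Its order of the stages, with the milky stage first, then floral initiation, soft dough and booting, was shared by 522 loci (2.84%).

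Within the drying series the differences of CSLF6 were smaller than between neighbouring stages. The question of this series is how the booting internode differs as the soil dries. D2 stood at 3.31 FPKM against 3.75 in D1, 1.13 times lower, with a log2 difference of -0.14. In 65.8% of loci the difference between these groups was wider in either direction, while 3.13% were at least 2-fold lower in D2. From D2 to D3 the value was 1.64 times higher, at 5.42 FPKM, a log2 difference of 0.57, where 4.91% of loci were at least 2-fold higher and 12.6% had a more positive difference. Counted in either direction, 24.7% of loci had a wider difference in this pair. D3 was 1.45 times above D1, a log2 difference of 0.44, with 6.37% of loci at least 2-fold higher and 19.8% more positive. None of the 3 differences of CSLF6 reached 2-fold. The log2 range over the drought groups was 0.57, beside a median of 0.45 for all loci, and 39.4% of loci had a wider one. The order of D3 above D1 above D2 was shared by 19.0% of loci.

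Against the watered booting plants of the soil bed, CSLF6 was lower in all 3 drought groups. These comparisons cross the 2 tables, and pot, drought and table cannot be told apart in them. They also share the single booting value, so they are not independent of each other. D1 was 2.45 times below booting, a log2 difference of -1.10, where 13.4% of loci were at least 2-fold lower and 11.7% had a more negative difference than CSLF6. D2 was 2.77 times below, at -1.24, with 12.7% of loci at least 2-fold lower and 9.24% more negative. D3 was 1.69 times below, at -0.66, under 2-fold, with 14.3% of loci at least 2-fold lower and 21.9% more negative. With an offset of 5 the first 2 differences were -0.70 and -0.77, and with TPM -0.87 and -0.98, all under 2-fold. The TPM sums of the stages include unnamed loci, which the table of drought groups does not list. Of 18492 loci that were named in both tables and reached 1 FPKM in some group, 11.6% had all 3 drought values below all 4 stage values, as CSLF6 did. Over all 7 groups its log2 range was 4.52, and 602 loci (3.26%) had a wider one.

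The loci most like CSLF6 were found by Pearson's r of log2(FPKM + 1) over the 7 groups, among 13532 other loci of a single gene that reached 5 FPKM in some group. The points share few groups and 2 separately made tables, so r is a description with no p. At least 0.95 was reached by 70 loci (0.517%) and at least 0.9 by 234 (1.73%), while the median was -0.09 and 434 loci (3.21%) were at -0.9 or below.

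The highest r, 0.992, belonged to Sobic.006G193600 (chromosome 6, 54693062 to 54695379), with 18.9, 6.05, 52.0 and 11.5 FPKM from floral initiation to soft dough and 3.46, 3.12 and 4.07 in D1 to D3. Its order over the 7 groups was the same as that of CSLF6, over a log2 range of 3.68. Sobic.007G079400 (chromosome 7, 9297872 to 9302727; r 0.988) had 19.5, 11.2, 35.4 and 16.0 FPKM in the stages and 5.97, 5.84 and 7.66 in the drought groups, again in the same order but over a narrower log2 range of 2.41. Sobic.002G094600 (chromosome 2, 9808887 to 9815473; r 0.984) stood at 21.7, 4.55, 63.7 and 5.31 FPKM in the stages and at 1.04, 1.71 and 1.41 in D1 to D3. It had the widest log2 range of the 5 loci, 4.99, and differed from CSLF6 in the order of the drought groups.

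High r did not require a wide range. Sobic.001G061800 (chromosome 1, 4572358 to 4576974; r 0.989) lay between 33.1 and 37.6 FPKM in all 7 groups, a log2 range of 0.18. Sobic.003G166750 (chromosome 3, 25892837 to 25899875; r 0.984) lay between 8.37 and 16.1 FPKM, a log2 range of 0.87. Its drought values were 8.37, 8.43 and 8.39 FPKM in D1 to D3, in another order than those of CSLF6. The files pair none of these identifiers with a product name, and nothing is said here of what they encode.

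**Figure D3:**
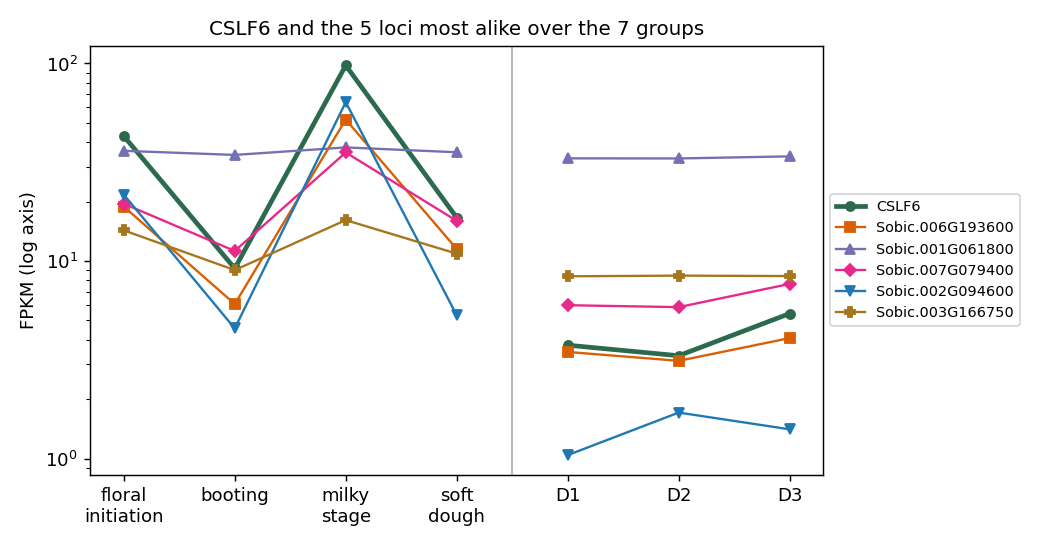
FPKM on a log axis for CSLF6 (thick line) and the 5 loci with the highest Pearson's r to it, in the 4 stages (left of the grey line) and the 3 drought groups (right), 1 deposited value per point. Sobic.006G193600 has the same order of groups as CSLF6 over a narrower log2 range, 3.68 against 4.52. It runs from 52.0 FPKM at the milky stage to 3.12 in D2, whereas Sobic.001G061800 stays between 33.1 and 37.6.

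The named loci nearest to CSLF6 were mostly at low values. On the side of lower coordinates Sobic.007G050500 (5117596 to 5122834) was at 0.0928 to 0.660 FPKM in the 7 groups. Beyond it, a locus that joins Sobic.007G050300 and Sobic.007G050400 (5092365 to 5104103) stood at 15.1, 24.2, 13.7 and 21.6 FPKM from floral initiation to soft dough and at 32.3 to 33.0 in the drought groups. Its order of the stages was the reverse of that of CSLF6. On the other side Sobic.007G050700 (5170031 to 5172247) reached 1.10 FPKM at the milky stage against 0.00614 to 0.0357 in the other stages and listed at 0 in D1, D2 and D3. Sobic.007G050750 (5173389 to 5174016) had 2.04 FPKM at the milky stage and 0.255 at soft dough and was listed at 0 in the other 5 groups.

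Loci farther along the chromosome were looked at after the values of CSLF6 and of some of them had been seen. Of the 10 nearest loci of a single gene that reached 1 FPKM in some stage on the side of higher coordinates, which extend over 217 kb, 7 were at least 2-fold higher at the milky stage than at booting. Of these 7, Sobic.007G050700 and Sobic.007G050750 reached 1 FPKM at the milky stage alone, and Sobic.007G051501 and Sobic.007G052000 at the milky stage and soft dough alone, so the minimum itself selected for a high value there. Among the 6 loci on that side that reached 1 FPKM at booting, 3 were at least 2-fold higher at the milky stage. On the side of lower coordinates, where the 10 nearest extend over 365 kb and all reached 1 FPKM at booting, 1 was. Of all loci compared, 9.27% were at least 2-fold higher at this step, a share not restricted to loci that reached 1 FPKM at booting. Over both sides, 3 of the 20 loci were at least 2-fold lower at booting than at floral initiation, beside 13.5% of all loci compared. At soft dough 6 of the 20 were at least 2-fold lower than at the milky stage, beside 8.13%. Among these 6 were Sobic.007G050700 and Sobic.007G050750, which the minimum selected by their milky stage value alone. Loci that join several genes were left out, but entries listed with the same span as each other were counted separately. The window was chosen with values known, and these counts are a description that supports nothing about shared courses among neighbours.

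**Figure D4:**
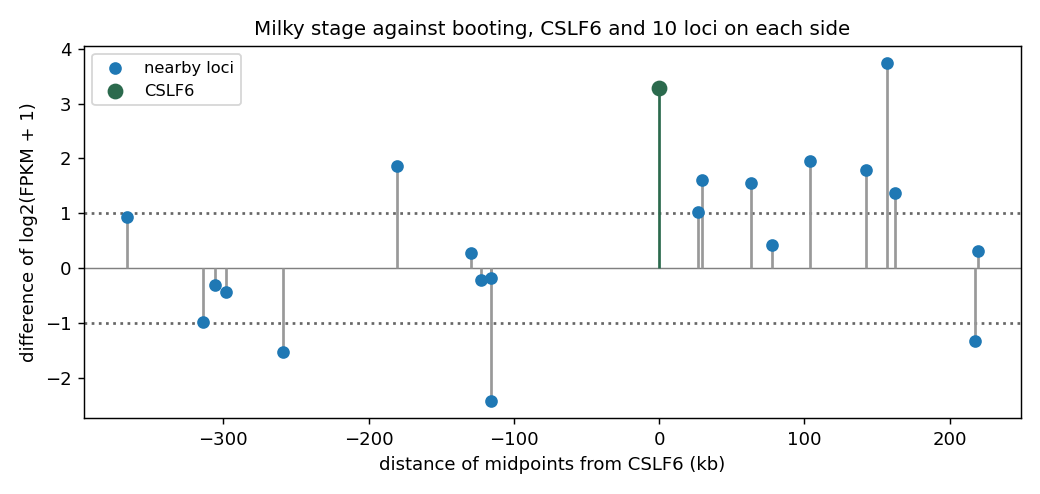
Difference of log2(FPKM + 1) between the milky stage and booting for CSLF6 (green) and the 10 nearest single-gene loci on each side (blue), by the distance of their midpoints from that of CSLF6 in kb; dotted lines mark 2-fold. On the right 7 of 10 loci are above the upper dotted line, 4 of which did not reach 1 FPKM at floral initiation or booting, and on the left 1 of 10 is. Of all loci compared, 9.27% were at least 2-fold higher.

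The loci past 2-fold on the side of higher coordinates differed widely in level. Sobic.007G051800 (chromosome 7, 5299966 to 5302054) had 407 FPKM at floral initiation, 51.8 at booting, 707 at the milky stage and 563 at soft dough, and 35.2, 85.6 and 31.4 in D1 to D3. Like CSLF6 it had its lowest stage value at booting, but between the milky stage and soft dough its log2 difference was -0.33, against -2.49 for CSLF6. Sobic.007G051700 (chromosome 7, 5282383 to 5291841) had 52.9, 35.5, 124 and 59.8 FPKM in the stages and 44.4, 47.6 and 52.6 in the drought groups. Its highest and lowest stages were those of CSLF6, while its drought values were above its booting value. Sobic.007G051300 (chromosome 7, 5206088 to 5208674) had 3.69, 2.15, 8.24 and 4.32 FPKM in the stages and 1.64, 1.84 and 2.47 in the drought groups. The other 4 loci past 2-fold on that side, Sobic.007G050700, Sobic.007G050750, Sobic.007G051501 and Sobic.007G052000, also had their highest stage value at the milky stage, at 1.10, 2.04, 3.45 and 2.67 FPKM.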

How the data were processed

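RNA was sequenced from stem internodes in 14 libraries of 7 groups, named by the stage or soil moisture in the labels. Libraries came from total RNA with a stranded kit, per the labels' protocols. The authors deposited FPKM, 1 value per locus and group, in 2 tables quantified separately, per the file headers. The submitters' processing notes name HISAT2 2.0.5, Bowtie2 2.2.9, cutadapt 1.8.1 and Cuffdiff. How 1 value was made from the 2 libraries, and the genome build, are not stated in these sources. The depth is unknown. Unnamed loci (2003, all in the table of development stages) were left out of the comparisons but counted in the sums used for TPM. The table of drought groups had none, so across the tables these sums cover unlike sets of loci. Repeated drought entries (21) were used once. No value column (0) belonged to other samples.

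Levels are FPKM and changes are differences of log2(FPKM + 1), with at least 1 counted as 2-fold. Each comparison covered named loci that reached 1 FPKM in some stage, in some drought group or, across the tables, in any of the 7 groups. Loci below 1 FPKM in both groups of a comparison were thus counted if another group reached it. Values were computed in Python 3.11.15 with pandas 2.3.3. The step was tested on simulated data. The planned limma test needs values per library, so no test was run. The lists of wall enzymes and cell type markers were to be formed by product name. The reference table (assembly Sorghum_bicolor_NCBIv3) matched 0 of 33415 named loci, so neither the pathway lists nor tissue markers were analysed here, and no sequence is shown. By rule, the loci named besides CSLF6 are the 5 with the highest r and the 2 nearest named ones on each side. The entry with the same span as CSLF6 and 5 loci farther along chromosome 7 were named after their values were seen. The gene, the lists and these rules were chosen with earlier results of these data known. Alternatives were offsets of 0.1 and 5, other minimum FPKM, median-of-ratios scaling, quantile normalization and TPM.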

Additional observations from a re-analysis of the deposited data

How the results depend on the processing

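All 12 differences of CSLF6 kept their direction under offsets of 0.1 and 5, median-of-ratios scaling, quantile normalization and TPM, and the 3 across the tables also with scaling over loci with the same coordinates, an alternative chosen after seeing the data. The steps between neighbouring stages stayed at least 2-fold, between -2.57 and -1.76 into booting, between 2.86 and 3.58 into the milky stage and between -2.55 and -2.25 into soft dough. The milky stage against floral initiation was 0.94 with quantile normalization, and soft dough against booting was 1.08 with TPM. D1 against booting was -0.70 with an offset of 5 and -0.87 with TPM, and D2 against booting -0.77 and -0.98. With TPM the median of all loci was -0.38 for booting against floral initiation (0.01 with FPKM), and CSLF6 differed from that median by -2.19. For soft dough against booting the TPM median was 0.23, from which CSLF6 differed by 0.85. Across the tables the TPM medians were 0.26 and 0.31 for D1 and D2, from which CSLF6 differed by -1.13 and -1.29. The number of loci with the course of CSLF6 was 215 with an offset of 0.1, 46 with an offset of 5 and 225 with TPM, and these alternatives were added after seeing the data. With an offset of 5, 237 loci had r of at least 0.9 in place of 234. Counting all named loci, with no minimum, put 95.6% of them below CSLF6 at the milky stage and 59.4% in D2. The planned counts over gene lists were not run, as the lists could not be formed. No replicate could be left out, and no paired analysis was possible because the file holds 1 value per group. Unknown depth limits what the small differences among the drought groups can show.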
